A study of Mus musculus with 12 samples.

Results

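Voltage-gated sodium and calcium channel genes were taken as all protein-coding genes whose symbol names a sodium channel alpha or beta subunit (Scn followed by a number and a or b) or a calcium channel alpha1, alpha2delta, beta or gamma subunit (Cacna, Cacna2d, Cacnb and Cacng). The rule found 40 genes among 55385 in the deposited tables, 14 of sodium channels and 26 of calcium channels. Of these, 37 had enough counts to be tested, and Scn10a, Cacng1 and Cacng6 did not. RNA-seq of polyadenylated RNA compared whole cerebellum of C57BL/6 mice at postnatal day 14 between 3 wild-type (WT) libraries and 3 libraries labelled EED-/-, from conditional knockouts of Eed. EED protein is a core part of the Polycomb complex PRC2, which silences genes by methylating histone H3. The labels name no Cre driver, no cell type of deletion and no sex, and do not say that each library came from its own animal, so p-values measure the spread between these libraries only. The ChIP-seq samples of the series were not analysed here.

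A voltage-gated sodium channel is a large alpha subunit that holds the voltage sensors, the pore and the inactivation gate, joined by small beta subunits that are also adhesion molecules. It carries the rising phase of the action potential. A voltage-gated calcium channel has an alpha1 subunit as its pore, an intracellular beta subunit and an extracellular alpha2delta subunit that help it reach the membrane, and in muscle a gamma subunit; most other gamma genes encode TARPs, which carry AMPA-type glutamate receptors to synapses. In the cerebellum these channels set the pacemaking of Purkinje cells, glutamate release from the parallel fibres of granule neurons, and bursts in the cerebellar nuclei.

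Eed checked the genotype labels first. In CPM, a share of all counts in a library with its size adjusted by TMM scaling (1 CPM is about 20 counts here), the WT libraries in order of replicate number stood at 20.1, 26.6 and 23.5. The EED-/- libraries stood at 11.6, 9.31 and 11.3. Every EED-/- library lay below every WT library (log2 fold change -1.12, SE 0.154; edgeR quasi-likelihood F test, Benjamini-Hochberg adjusted p = 0.0015). The libraries held 19621814 to 20366173 estimated counts each. The labels do not say which exons of Eed the deletion removes. Defining genes of the labelled tissue were present in WT, with 269 CPM of the Purkinje gene Pcp2 and 280 CPM of the granule neuron gene Gabra6. Between genotypes, 15 of 15 granule neuron markers were lower, and their summed level was 6501 to 8227 CPM in WT and 852 to 1106 CPM in EED-/- libraries. Of all 18091 tested genes 14.1% were lower and 11.7% higher. All marker lists were chosen with earlier results of these data known, so their counts describe the libraries and are not independent evidence. In bulk tissue, here and for every gene below, fewer cells of a type and less RNA per cell cannot be told apart. Of 14 Purkinje markers 2 were lower and 0 higher, with a summed level of 5570 to 6624 CPM in WT and 5482 to 7285 CPM in EED-/-. Of 17 skeletal muscle markers 15 were higher, with a summed level of 30.8 to 45.9 CPM in WT and 161 to 216 CPM in EED-/-. Some of them, such as Chrnd with 0 and Ckm with 2 counts over the WT libraries, had enough counts only in EED-/- libraries. Such genes could be called only as higher, so the count of muscle markers is not a test. Of 12 markers of cerebellar nuclei and brainstem neurons 6 were higher and 0 lower, at 1216 to 1345 CPM in WT and 1953 to 2291 CPM in EED-/-.

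Channel genes moved in both directions. Of the 37 tested, 10 were higher and 10 lower in EED-/- cerebellum, against 11.7% of all 18091 tested genes higher and 14.1% lower. The median log2 change of the 37 was -0.15, and that of all tested genes -0.03. Pore-forming subunits gave 7 higher and 6 lower of 19, and auxiliary subunits 3 higher and 4 lower of 18. Sodium channel genes were 6 higher and 1 lower of 13, and calcium channel genes 4 higher and 9 lower of 24. Among the called genes 7 rose and 4 fell at least 2-fold. The genotypes did not overlap for 26 of the 37, against 43.9% of all tested genes. Scaling by the upper quartile gave 12 higher and 7 lower channel genes, and no scaling beyond library size gave 12 and 8. The median over all genes shifted by 0.12 and 0.10 under these choices, so a log2 change is given relative to TMM. In the authors' deposited table, where 12.7% of 35173 genes with a p-value had an adjusted p under 0.05, 14 channel genes were higher and 11 lower, and all 20 genes called here had the same call there. Those 35173 genes include many with low counts that the 18091 here leave out, so 12.7% is not a like background. The deposited values match a DESeq2 fit to these same counts, so the shared calls are not independent evidence.

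**Figure D1:**
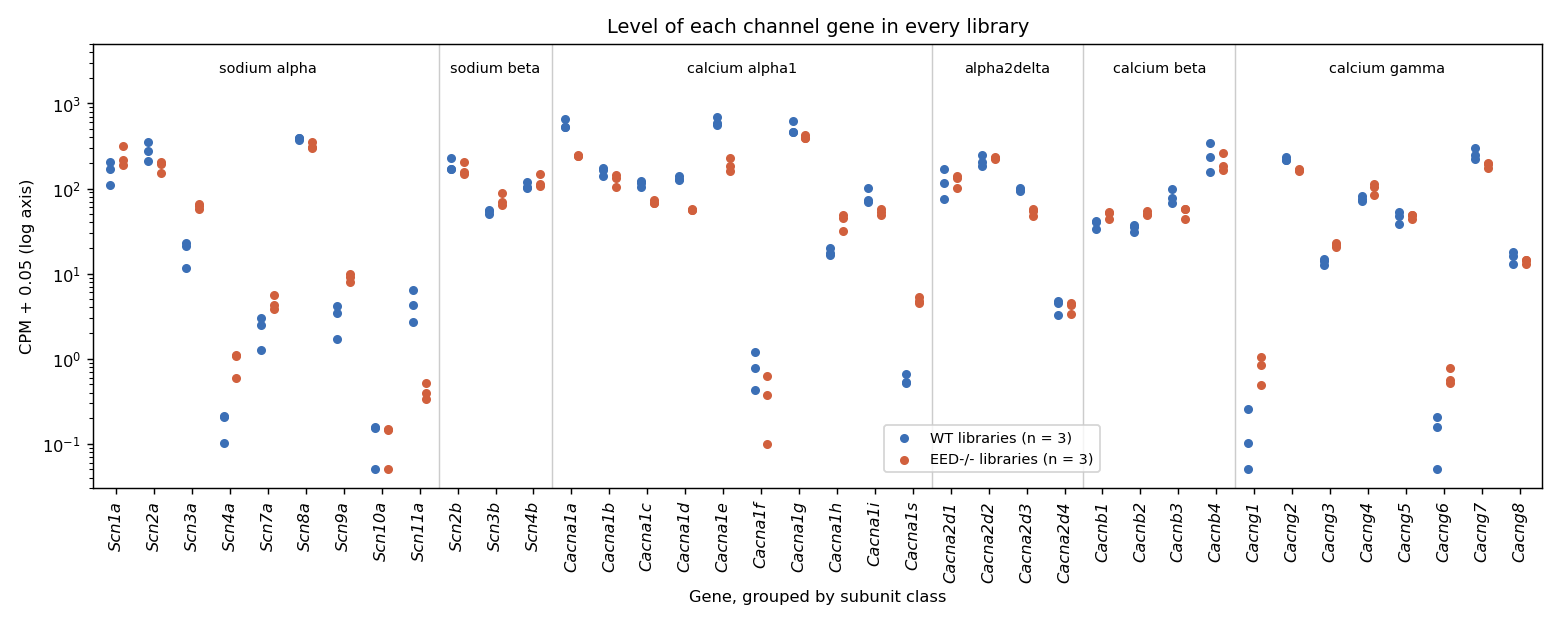
Level of 38 channel genes in each of the 3 WT and 3 EED-/- libraries, as CPM plus 0.05 on a log axis, 1 point per library, with genes grouped by subunit class. Cacna1a, Cacna1e and Cacna1d lie lower in all EED-/- libraries, Scn3a and Cacna1s lie higher, and Scn10a is near 0 in both genotypes.

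Per kilobase of the longest coding transcript, channel transcripts at high levels in WT cerebellum were those of Cacng7 (115 ± 17.6 CPM per kb, SD, n = 3, rank 2 of 40), Cacna1a (72.6 ± 9.21) and Cacna1g (61.5 ± 11.7). Cacng7 also had rank 2 in EED-/- libraries, at 85.3 ± 5.06 CPM per kb. Cacna1a went from rank 3 to rank 6, at 30.8 ± 0.573 CPM per kb in EED-/-, and Cacna1e went from rank 5 to rank 21. Cacna1e (41 ± 4.5), Scn2b (40.5 ± 7.27) and Cacng2 (40.4 ± 2.07), neighbours in the WT order, differed by less than their spread. The lengths are a model of which transcripts are used: with the length of all merged exons Cacna1a had rank 4, after Cacna1g, and Cacna1e rank 10.

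The sodium channel alpha subunits of the mature brain carried nearly all alpha transcripts in both genotypes, and none of them was called. Per kilobase, Scn1a, Scn2a and Scn8a together made up 96.1 ± 0.384% of all alpha transcripts in WT and 89.8 ± 1.12% in EED-/- libraries. Scn8a, the main alpha subunit of nodes of Ranvier and mature axon initial segments, was at 395, 394 and 374 CPM in WT and 309, 301 and 349 CPM in EED-/- libraries. All EED-/- values were below all WT values, but the difference did not pass the threshold (log2 fold change -0.28, SE 0.107; edgeR adjusted p = 0.0914). Scn2a, which serves early initial segments and unmyelinated axons, was at 210, 348 and 278 CPM in WT and 206, 152 and 195 CPM in EED-/- (log2 fold change -0.60, SE 0.195; edgeR adjusted p = 0.0546). WT replicate 1 was the low WT library and nearly met the highest EED-/- library; Scn2a was called lower in 3 of 13 alternatives, which were DESeq2 (adjusted p = 0.0165), the fit with no filter on low counts (0.0192) and the fit without WT replicate 1 (0.0153), in a range to 0.166 over all 13. Scn1a, the alpha subunit known for fast-spiking inhibitory neurons and Purkinje cells, was at 109, 208 and 168 CPM in WT and 219, 191 and 315 CPM in EED-/-, and the genotypes overlapped (log2 fold change 0.58, SE 0.261; edgeR adjusted p = 0.142). DESeq2 called Scn1a higher (adjusted p = 0.0432, in a range to 0.328 over the alternatives).

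The ratio of these subunits within a library, which no scaling between libraries can move, separated the genotypes. Scn1a was 0.552, 0.635 and 0.643 times Scn2a per kilobase in the WT libraries and 1.13, 1.34 and 1.72 times Scn2a in the EED-/- libraries. Scn2a was thus the more abundant of the pair in every WT library and Scn1a in every EED-/- library. These ratios were chosen after the values were seen and are given without a test.

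Of the 9 tested alpha subunit genes 5 rose, among them Scn3a, Scn9a and Scn7a, and 1 fell, against 11.7% of all tested genes higher and 14.1% lower. Scn3a, the alpha subunit of the prenatal and newborn brain, was at 11.5, 21.4 and 22.6 CPM in WT and 65, 57.1 and 61.5 CPM in EED-/- libraries. The lowest EED-/- library held more than 2 times the highest WT library, and the rise was 3.31-fold (log2 fold change 1.73, SE 0.233; edgeR adjusted p = 0.00163). Its share of alpha transcripts per kilobase went from 2.18 ± 0.537% to 7.52 ± 0.868%, and its ratio to Scn2a from 0.0616 ± 0.013 to 0.314 ± 0.0333. Scn9a, known from sensory and sympathetic neurons, was at 1.64, 3.38 and 4.08 CPM in WT and 9.04, 7.9 and 9.79 CPM in EED-/- (2.93-fold; log2 fold change 1.55, SE 0.296; edgeR adjusted p = 0.00643). Neither Scn3a nor Scn9a overlapped between genotypes, and 43.9% of all tested genes did not either. Scn7a encodes the atypical sodium-sensing channel of glia and was at 1.23, 2.41 and 2.95 CPM in WT and 3.83, 4.28 and 5.53 CPM in EED-/- (2.07-fold; edgeR adjusted p = 0.0401). That call ended without EED-/- replicate 1, 2 or 3 or WT replicate 2, with adjusted p of 0.0558 to 0.105 (0.00577 to 0.105 over the 13 alternatives). In the same libraries 7 of 8 markers of oligodendrocyte progenitors were higher, against 11.7% of all tested genes. Their summed level was 666 to 723 CPM in WT and 902 to 1191 CPM in EED-/-. Other glial lists differed: of 10 markers of astrocytes and Bergmann glia 2 were higher and 3 lower. Of 8 markers of myelinating oligodendrocytes 0 were higher and 4 lower, and of 9 microglia markers 7 were higher and 0 lower. Of 11 vascular and meningeal markers 7 were higher, at 509 to 578 CPM in WT and 939 to 1251 CPM in EED-/-. The part of these markers, and of the markers of cerebellar nuclei and brainstem neurons given above, in the values of Scn3a, Scn9a and Scn7a was not tested.

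Scn11a had the largest fall of any channel gene. This alpha subunit of peripheral pain-sensing neurons was at 6.36, 4.18 and 2.64 CPM in WT and 0.284, 0.47 and 0.343 CPM in EED-/- libraries, which is 253 against 23 counts over 3 libraries each. The WT libraries varied by more than 2 times among themselves, yet the lowest was far above every EED-/- library, and the fall was 11.8-fold (log2 fold change -3.56, SE 0.403; edgeR adjusted p = 0.000633). Scn11a passed the filter on low counts only through its WT libraries, and its EED-/- level was near the floor. Scn10a, another alpha subunit of pain-sensing neurons, had 4 counts in each genotype, which bounds the EED-/- to WT ratio only to 0.17 to 4.91 (95% exact conditional binomial interval, for counting error only). Of 9 sensory neuron markers 7 were tested, 3 were higher (Pou4f1, Isl1 and Avil) and 1 lower (Tlx3, a homeobox gene), with Prph and Prrxl1 among those not called. Their summed level was 24.8 to 40.8 CPM in WT and 39.5 to 45.8 CPM in EED-/- libraries, and their part in the values of Scn9a and Scn11a was not tested. The granule neuron markers given above fell in the same libraries as Scn11a, and their part in its value was not tested either.

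Genes of several alpha subunits lie in clusters. On chromosome 2 of GRCm38, Scn3a, Scn2a, Scn1a, Scn9a and Scn7a lie in this order between 65457118 and 66784914, a span of 1327.8 kb. Of these 5 genes 3 rose and 0 fell, against 11.7% of all tested genes higher and 14.1% lower. Scn3a and Scn2a, 53.1 kb apart and on opposite strands, changed by 1.73 and -0.60 on the log2 scale, the latter not called. On chromosome 9, Scn10a and Scn11a (119753759 to 119825456) lie on the minus strand as neighbours among channel genes.

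The bases just before the RefSeq transcription starts of Scn9a (chr2:66634963-66635212) and Scn11a (chr9:119825457-119825706), both on the minus strand of GRCm38.p6 and overlapping no gene of the GENCODE annotation, are shown because these 2 genes known from peripheral nerve went opposite ways. Capitals mark CG, the dinucleotide that is dense in CpG islands.
Scn9a: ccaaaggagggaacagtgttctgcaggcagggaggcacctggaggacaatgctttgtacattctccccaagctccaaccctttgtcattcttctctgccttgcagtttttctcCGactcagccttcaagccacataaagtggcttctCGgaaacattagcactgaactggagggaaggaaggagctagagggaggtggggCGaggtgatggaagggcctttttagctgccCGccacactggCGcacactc
Scn11a: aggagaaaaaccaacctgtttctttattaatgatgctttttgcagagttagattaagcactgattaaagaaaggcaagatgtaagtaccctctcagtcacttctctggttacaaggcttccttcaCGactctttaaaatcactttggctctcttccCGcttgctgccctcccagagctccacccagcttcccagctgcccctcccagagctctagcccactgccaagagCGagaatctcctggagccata
The Scn9a window held 5 CG and that of Scn11a 3, against a median of 6 over all 32851 windows of 250 bases in the RefSeq table. RefSeq windows were matched for 30 of the 40 channel genes, 41 windows in all because some genes have several starts. CG counts had a median of 5 in the 7 windows of higher genes, 9 in the 13 windows of lower genes and 9 in the 19 windows of genes that were not called, with ranges of 3 to 30, 2 to 50 and 0 to 37. These windows come from 6, 9 and 13 genes, so they are not independent units. Many lie partly or wholly inside an annotated gene, such as those of Cacna1e and Cacng3, with all 250 bases in an exon.

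Of the 4 sodium channel beta genes, 1 was called, against 25.8% of all tested genes called in either direction. Scn3b, whose protein binds alpha subunits without a covalent bond, was at 55, 49.7 and 55.2 CPM in WT and 88.4, 68.9 and 64.3 CPM in EED-/- libraries (1.39-fold higher; log2 fold change 0.47, SE 0.14; edgeR adjusted p = 0.0385). EED-/- replicate 1 was the highest, and the call ended without it, without EED-/- replicate 2 or WT replicate 2 or 3, and with a replicate block, with adjusted p of 0.0676 to 0.158 (0.0139 to 0.158 over the 13 alternatives). Scn2b and Scn4b, whose proteins are joined to alpha by a disulfide bond, lie 8.32 kb apart on chromosome 9 and were not called, with log2 changes of -0.15 (SE 0.173) and 0.18 (SE 0.144). Scn4b, linked to the resurgent sodium current of Purkinje cells, was at 101 to 118 CPM in WT and 106 to 146 CPM in EED-/- libraries.

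**Figure D2:**
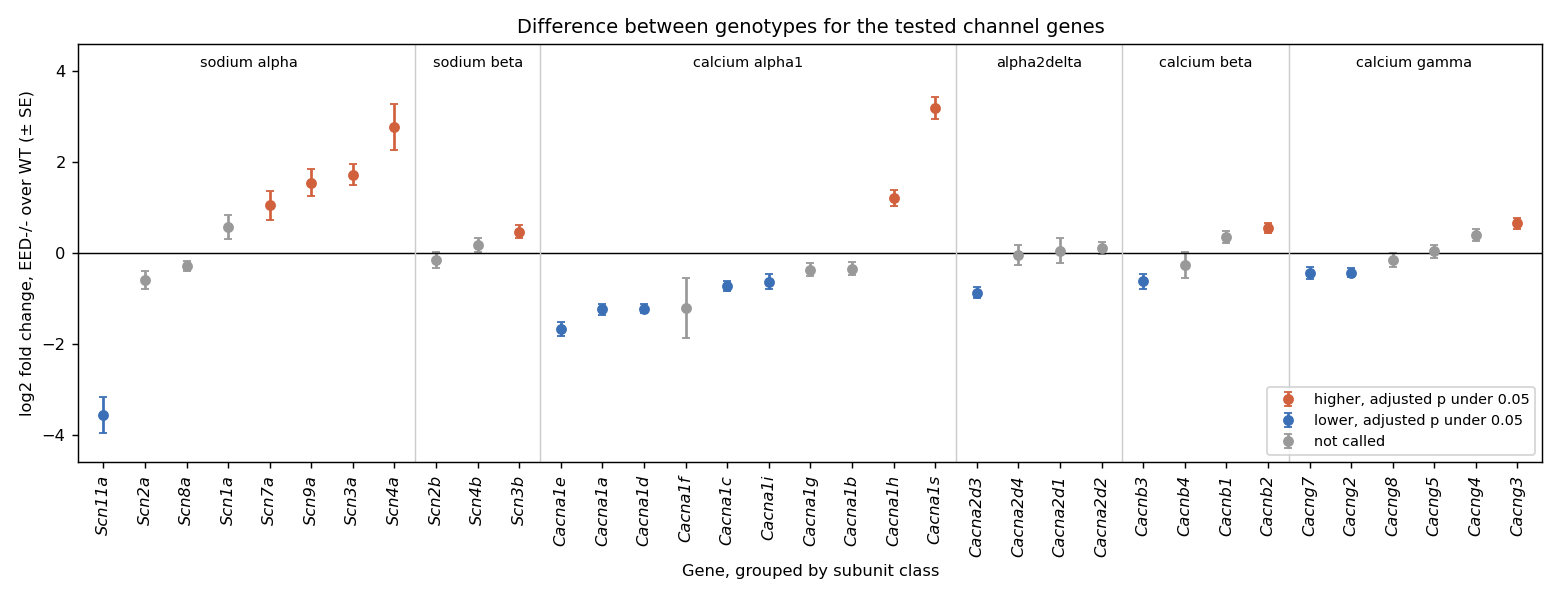
Log2 fold change of EED-/- over WT with its SE for 35 of the 37 tested channel genes (3 libraries per genotype), grouped by subunit class and ordered by value within a class; colours give the call at an adjusted p under 0.05. Values run from -3.56 for Scn11a to 3.19 for Cacna1s, and 5 of the 10 calcium channel alpha1 genes are lower, against 14.1% of all tested genes.

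Of the 7 calcium channel pore genes of the high-voltage-activated families, 4 fell and 1, Cacna1s, rose. Of all tested genes 14.1% were lower and 11.7% higher. Cacna1a, the P/Q-type pore of Purkinje and granule cells that drives release at most cerebellar synapses, was at 660, 531 and 535 CPM in WT and 239, 244 and 248 CPM in EED-/- libraries. Every EED-/- library held less than 0.5 times the level of the lowest WT library, and the fall was 2.36-fold (log2 fold change -1.24, SE 0.121; edgeR adjusted p = 0.000333). Cacna1e, the R-type pore, was at 584, 688 and 563 CPM in WT and 186, 161 and 230 CPM in EED-/-, the second largest fall of a tested channel gene (3.18-fold; log2 fold change -1.67, SE 0.156; edgeR adjusted p = 0.000269). Cacna1d, an L-type pore that opens at relatively negative voltages, was at 128, 140 and 125 CPM in WT and 56.8, 55.3 and 56.6 CPM in EED-/- (2.33-fold lower; log2 fold change -1.22, SE 0.102; edgeR adjusted p = 0.00015). Cacna1c, the other L-type pore of neurons, was at 123, 117 and 105 CPM in WT and 72.6, 68 and 67.9 CPM in EED-/- (1.65-fold lower; log2 fold change -0.73, SE 0.108; edgeR adjusted p = 0.00221). None of these 4 genes overlapped between genotypes, which was also so for 43.9% of all tested genes. The granule neuron markers given above fell in the same libraries, and their part in these values was not tested.

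Cacna1b, the N-type pore of presynaptic terminals, was at 166, 142 and 176 CPM in WT and 135, 143 and 104 CPM in EED-/-, with overlap between genotypes (log2 fold change -0.34, SE 0.147; edgeR adjusted p = 0.127). Cacna1f, the L-type pore of photoreceptors, was at 0.376 to 1.14 CPM in WT and 0.0489 to 0.568 CPM in EED-/-, or 43 against 20 counts, and was not called (edgeR adjusted p = 0.214). Summed per kilobase, the alpha1 genes gave 211 to 251 CPM per kb in WT and 125 to 131 CPM per kb in EED-/- libraries. The same sum over sodium channel alpha genes was 73.7 to 102 CPM per kb in WT and 74.2 to 98.7 CPM per kb in EED-/-, so the sodium channel totals overlapped and the calcium channel totals did not.

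Low-voltage-activated T-type pores, which support burst firing, did not move together. Cacna1h was at 17.3, 16.5 and 19.7 CPM in WT and 44.8, 48.5 and 31.4 CPM in EED-/- libraries (2.33-fold higher; log2 fold change 1.22, SE 0.174; edgeR adjusted p = 0.00184). EED-/- replicate 3 was the lowest of its genotype and still above every WT library. Cacna1i was at 102, 69.6 and 73.3 CPM in WT and 56.9, 53.3 and 48.6 CPM in EED-/- (1.54-fold lower; edgeR adjusted p = 0.0218), with WT replicate 1 the highest. That call ended without EED-/- replicate 1, 2 or 3 (adjusted p of 0.0614 to 0.0919, and 0.00327 to 0.0919 over the 13 alternatives). Cacna1g, the T-type pore of Purkinje cells and the cerebellar nuclei, was at 628, 457 and 461 CPM in WT and 389, 427 and 388 CPM in EED-/- and was not called (log2 fold change -0.36, SE 0.146; edgeR adjusted p = 0.105). Its share of alpha1 transcripts per kilobase was 25.2 to 29.8% in WT and 36.5 to 38.9% in EED-/-, while that of Cacna1a was 31.0 to 33.1% and 23.5 to 25.1%. Cacna1g was 0.813 to 0.901 times Cacna1a per kilobase in the WT libraries and 1.48 to 1.66 times Cacna1a in the EED-/- libraries. With merged exon lengths, chosen after seeing the data, the ratio was 0.968 to 1.07 in WT and 1.76 to 1.98 in EED-/-, so the order of the pair in WT depends on the length used, while the ratio was higher in every EED-/- library by either.

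**Figure D3:**
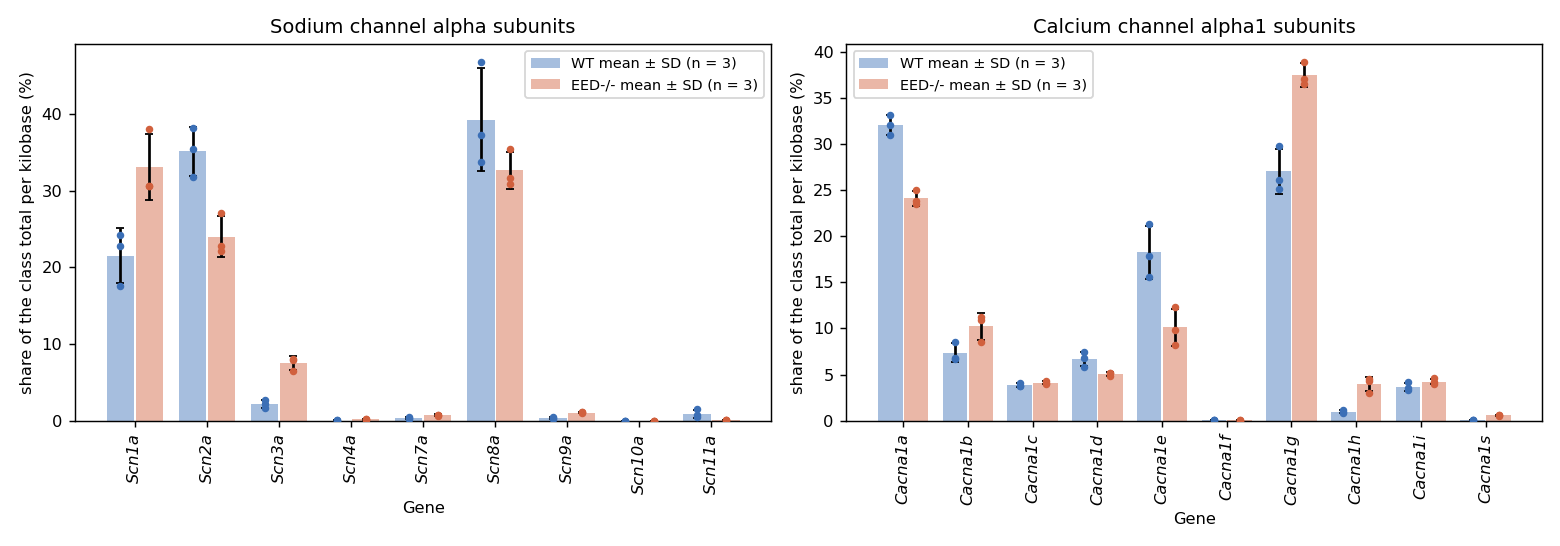
Share of the genes drawn in the summed level per kilobase of their whole class, in percent, for sodium channel alpha (left) and calcium channel alpha1 genes (right); bars are means of 3 libraries per genotype with SD, points single libraries. Scn1a and Scn3a take larger and Scn2a smaller shares in EED-/- libraries, and Cacna1g takes a larger and Cacna1a a smaller share of alpha1.

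Log2 changes of the tested auxiliary calcium channel genes ran from -0.87 to 0.65, and those of the pore genes from -1.67 to 3.19. Among alpha2delta genes only Cacna2d3 was called, at 101, 97.3 and 94.5 CPM in WT and 55, 47.3 and 58 CPM in EED-/- libraries (1.82-fold lower; log2 fold change -0.87, SE 0.114; edgeR adjusted p = 0.00126). Cacna2d3 (28904943 to 29721864) and the pore gene Cacna1d (30039939 to 30491455), which both fell, lie next to each other among channel genes on the minus strand of chromosome 14.

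The windows before a RefSeq start of Cacna1d (chr14:30353487-30353736) and before the start of Cacna2d3 (chr14:29721865-29722114), both on the minus strand of GRCm38.p6, are shown because this pore gene and this auxiliary gene of 1 region fell together. The first lies in an intron of Cacna1d by the GENCODE annotation and the second overlaps no annotated gene. Capitals mark CG.
Cacna1d: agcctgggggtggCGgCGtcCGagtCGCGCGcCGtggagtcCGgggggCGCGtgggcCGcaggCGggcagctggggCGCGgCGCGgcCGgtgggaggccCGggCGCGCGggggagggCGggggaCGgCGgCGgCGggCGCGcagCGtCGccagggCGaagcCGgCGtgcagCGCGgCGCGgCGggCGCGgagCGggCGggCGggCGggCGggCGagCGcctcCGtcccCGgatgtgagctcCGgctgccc
Cacna2d3: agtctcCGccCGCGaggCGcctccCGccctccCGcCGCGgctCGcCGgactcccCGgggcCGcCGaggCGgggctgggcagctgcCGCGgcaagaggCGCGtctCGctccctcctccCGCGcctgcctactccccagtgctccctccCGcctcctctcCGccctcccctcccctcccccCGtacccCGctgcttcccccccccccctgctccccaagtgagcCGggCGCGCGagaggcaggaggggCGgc
The Cacna1d window held 50 CG, more than any other window of a channel gene, and that of Cacna2d3 held 30. A second Cacna1d window, at chr14:30491157-30491406, held 2. Cacna1c, the other L-type gene that fell, likewise paired a start with 48 CG and starts with 5 and 2. Gene-level counts do not say which start was used.

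Cacna2d2, which Purkinje cells use and whose loss causes ataxia in mice, was at 250, 183 and 204 CPM in WT and 223, 233 and 228 CPM in EED-/- (log2 fold change 0.10, SE 0.132). Cacna2d1, a target of gabapentin, was at 75.1, 172 and 117 CPM in WT and 133, 102 and 141 CPM in EED-/- (log2 fold change 0.05, SE 0.278). Its WT libraries were too far apart to place a small difference. Cacna2d4, known from the retina, was at 3.23 to 4.72 CPM in WT and 3.31 to 4.52 CPM in EED-/-.

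The beta subunits, which chaperone alpha1 to the membrane, went different ways. Cacnb2 was at 30.8, 35.6 and 37.5 CPM in WT and 50.5, 48.2 and 53.9 CPM in EED-/- libraries (1.47-fold higher; log2 fold change 0.55, SE 0.116; edgeR adjusted p = 0.00991). Cacnb3 was at 99.3, 68.1 and 76.7 CPM in WT and 57, 57.9 and 44.1 CPM in EED-/- (1.54-fold lower; edgeR adjusted p = 0.0281). The Cacnb3 call ended without WT replicate 1 or 3 or any 1 EED-/- library, and under either of the scalings by upper quartile or library size (adjusted p of 0.0547 to 0.112, and 0.00564 to 0.112 over the 13 alternatives). Cacnb4, the beta subunit mutated in lethargic mice, spanned 157 to 340 CPM in WT and 167 to 264 CPM in EED-/- and was not called. Cacnb1, the beta subunit of skeletal muscle that neurons also express, was at 40.9, 33 and 42 CPM in WT and 51.3, 52.5 and 44.1 CPM in EED-/- (edgeR adjusted p = 0.0842), and was called higher under those same scalings (adjusted p of 0.0358 and 0.0475, in a range to 0.238 over the alternatives).

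Among gamma genes, those of TARPs made up most transcripts. Cacng2 encodes stargazin, the TARP that brings AMPA receptors to granule neuron synapses, and was at 217, 236 and 215 CPM in WT and 169, 162 and 165 CPM in EED-/- libraries (1.35-fold lower; log2 fold change -0.43, SE 0.1; edgeR adjusted p = 0.0153). The genotypes were apart, but the call ended without WT replicate 3 or any 1 EED-/- library, with upper-quartile scaling and with a replicate block (adjusted p of 0.0525 to 0.0716, and 0.00147 to 0.0716 over the 13 alternatives). Cacng7, also a TARP, was at 297, 221 and 246 CPM in WT and 193, 197 and 176 CPM in EED-/- (1.35-fold lower; edgeR adjusted p = 0.0434), and 10 of the 13 alternatives ended its call, among them leaving out WT replicate 1 or 3 or any 1 EED-/- library (adjusted p of 0.055 to 0.173, and 0.0208 to 0.173 over all 13). Cacng3 was at 14.9, 12.4 and 14.1 CPM in WT and 23.1, 21.6 and 20.5 CPM in EED-/- (1.57-fold higher; log2 fold change 0.65, SE 0.126; edgeR adjusted p = 0.0068), and its call held in all 13 alternatives. Cacng4 was at 81, 71.2 and 75.7 CPM in WT and 104, 113 and 84.1 CPM in EED-/- and lay just outside the threshold (log2 fold change 0.40; edgeR adjusted p = 0.0548). It was called higher in 7 alternatives, among them without EED-/- replicate 3 or WT replicate 1 (adjusted p of 0.0158 to 0.0489, and 0.0158 to 0.18 over the 13). Cacng5 and Cacng8 were not called, with log2 changes of 0.04 (SE 0.134) and -0.15 (SE 0.153).

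The pore genes of skeletal muscle, Cacna1s and Scn4a, rose from near 0. Cacna1s, the L-type pore that serves as voltage sensor for muscle contraction, was at 0.616, 0.483 and 0.465 CPM in WT and 4.45, 5.27 and 4.7 CPM in EED-/- libraries, or 30 against 302 counts. It had the largest rise of a tested channel gene (9.12-fold; log2 fold change 3.19, SE 0.237; edgeR adjusted p = 9.31e-05). Scn4a, the muscle sodium channel pore, was at 0.154, 0.161 and 0.0517 CPM in WT and 1.04, 1.03 and 0.538 CPM in EED-/-, or 7 against 55 counts (6.86-fold; log2 fold change 2.78, SE 0.508; edgeR adjusted p = 0.00535). Cacng1, the gamma subunit of the muscle channel, had 5 counts over the WT and 47 over the EED-/- libraries, a ratio of 8.6 (95% exact conditional binomial interval 3.44 to 27.7). For Cacng6 the counts were 5 and 36, a ratio of 6.59 (2.58 to 21.5). Both intervals cover counting error only, and neither gene passed the filter on low counts. Cacna1s and Scn4a passed it only through their EED-/- libraries, so their fold changes and p-values rest on WT levels near 0. In each of these 4 genes every EED-/- library was above every WT library. No overlap, in either direction, was found for 43.9% of all tested genes. The muscle markers named above rose in the same libraries, Myh3 from 0.455 to 27.5 CPM and Chrnd from 0 counts in WT, and their part in these values was not tested.

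The letters CAGCTG, which read the same on both strands and are a form of the E-box that muscle bHLH factors bind, occurred in the 250 bases before the RefSeq start of Cacna1s (chr1:136052561-136052810, of which 61 lie in an annotated exon) and not in those of Scn4a (chr11:106349391-106349640). All 250 bases of the Scn4a window lie inside the annotated gene, 186 of them in an exon. They occurred in 11 of the 41 channel gene windows and in 13.0% of all windows of the same length. TATAAA, searched on both strands, occurred in 2 of the 41 and in 12.4% of all. A match says only that the letters are present.

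Partners of these channels were read from lists of sodium and calcium channel complexes. Of 13 tested partners of sodium channels 3 were lower and 0 higher, against 14.1% of all tested genes lower and 11.7% higher. The share called, 23.1%, is near the 25.8% of all tested genes called in either direction, so the count does not set these partners apart. Nedd4l, a ubiquitin ligase that removes sodium channels from the membrane, fell from 154 ± 17.5 to 81.2 ± 5.39 CPM (edgeR adjusted p = 0.00126). Sptbn4, the spectrin of the axon initial segment, fell from 278 ± 28.2 to 149 ± 21.7 CPM (edgeR adjusted p = 0.00257). Fgf14, an intracellular factor that binds alpha subunits and is mutated in a spinocerebellar ataxia, fell from 51.5 ± 11.2 to 27.2 ± 5.41 CPM (edgeR adjusted p = 0.0103). Ank3, which anchors sodium channels at the initial segment, was not called (log2 fold change -0.34; edgeR adjusted p = 0.0583), and neither were the cation leak channel Nalcn and its partners Unc79 and Unc80.

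Of 20 partners of calcium channels 7 were higher and 6 lower, against 11.7% of all tested genes higher and 14.1% lower. Junctophilins, which tie the surface membrane to the calcium store, went both ways: Jph1 fell from 30.1 ± 3.22 to 8.04 ± 1.19 CPM (3.74-fold; edgeR adjusted p = 0.000136) and Jph4 from 318 ± 55.7 to 121 ± 14.4 CPM. Jph2, the junctophilin of heart and muscle, rose from 0.992 ± 0.0535 to 3.71 ± 0.899 CPM (3.73-fold; edgeR adjusted p = 0.00155). Rims1, which holds calcium channels at the presynaptic active zone, fell from 196 ± 17.3 to 103 ± 8.52 CPM (1.9-fold; edgeR adjusted p = 0.00112), whereas Rimbp2, another protein of the active zone, rose from 28.2 ± 2.78 to 48.7 ± 5.58 CPM. Cachd1, a relative of alpha2delta, rose from 28.5 ± 0.493 to 52.2 ± 6.41 CPM (1.83-fold; edgeR adjusted p = 0.00158). The store release channels Ryr1 and Ryr3 rose 1.56-fold and 1.84-fold, and Ryr2 fell 1.62-fold. Stac3, which muscle needs to link Cacna1s to release, was at 3.38 CPM in WT and 2.71 CPM in EED-/- and was not called (log2 fold change -0.32; edgeR adjusted p = 0.28).

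Of the 20 called channel genes, 14 kept their call under all 13 alternatives: 8 higher (among them Scn3a, Scn4a, Scn9a, Cacna1h, Cacna1s, Cacnb2 and Cacng3) and 6 lower (Scn11a, Cacna1a, Cacna1c, Cacna1d, Cacna1e and Cacna2d3). The other 6, Scn7a, Scn3b, Cacna1i, Cacnb3, Cacng2 and Cacng7, lost it in at least 1. None of the 20 changed sign. Among the 14, Scn4a, Cacna1s and Scn11a passed the filter on low counts only through the genotype where they were high. Lower channel genes numbered 6 without EED-/- replicate 1, 2 or 3.

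**Figure D4:**
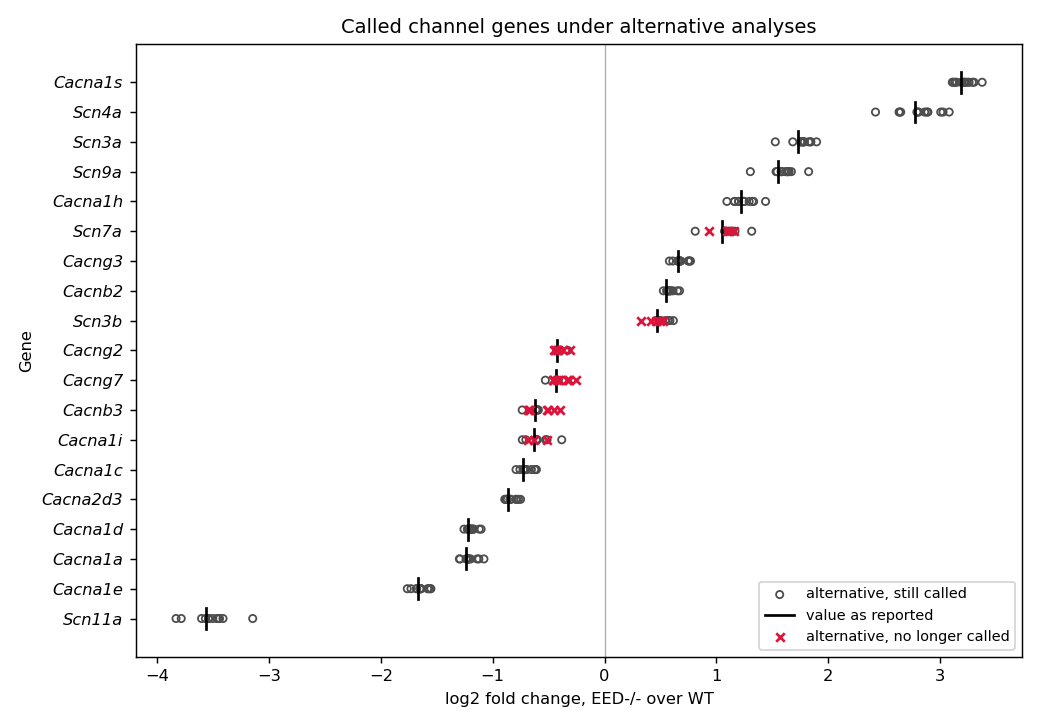
Log2 fold change of 19 of the 20 called channel genes as reported (black bar) and under 13 alternatives (other scalings, tests and filters, a replicate block, and each of the 6 libraries left out), with a cross where the adjusted p was no longer under 0.05. Crosses appear for 6 genes with log2 changes between -0.63 and 1.05, and no value crosses 0.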

How the data were processed

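RNA was measured by RNA-seq in 3 WT and 3 EED-/- libraries. Per the submitters' processing notes, Trimmomatic 0.36, Salmon 1.1.0 and DESeq2 1.26.0 were used with mouse build GRCm38; no role is stated for any of them. The deposited table holds estimated counts per gene, of which 22.5% to 23.6% per library were not whole to within 1e-06. Per the file headers, the second table deposited by the authors lists a mean normalised signal, a log2 fold change and its error, and p-values in the layout of a DESeq2 result. If Salmon made the counts, reads shared by similar genes were divided by a model on which values of close paralogues depend; use of strand is not stated.

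Counts were rounded, filtered (filterByExpr, 18091 genes kept) and tested in edgeR 4.0.16 (TMM, glmQLFit and glmQLFTest, robust, R 4.3.3) in a two-sided comparison of genotypes without covariates, with p adjusted by Benjamini-Hochberg across every tested gene and a threshold of 0.05. The SE was derived from the log2 change and its F statistic (absolute change over root F). The procedure was also run on simulated counts in which few genes changed, as many up as down. That setting differs from these data and does not bear on the choice of scaling. Lengths and positions came from GENCODE M21 (GRCm38) for all 40 channel genes, and upstream windows from RefSeq (GRCm38.p6, first 250 bases of each entry). Alternatives were RLE, upper-quartile and library-size scaling, DESeq2 1.42.0, limma-voom (limma 3.58.1), no low-count filter, a replicate block, and each library left out. Libraries of a genotype differed pairwise by more than counting noise (chi-square over its degrees of freedom, 8.36 to 55.2).

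Channel genes, partner and marker lists were chosen with earlier results of these data known. Called channel genes are named with all library values and the others by value or range, except for some genes that enter every fit and count but are not reported here; of partners and markers, those with the smallest adjusted p and a few others named after their values were seen. Of 15 listed sodium channel partners 13 were matched by symbol; Nalf1 and Nalf2 were not. Marker lists also gave these counts of higher and lower genes: inhibitory interneurons 2 and 4 of 11, astrocytes and Bergmann glia 2 and 3 of 10, myelinating oligodendrocytes 0 and 4 of 8, and microglia 7 and 0 of 9.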

Additional observations from a re-analysis of the deposited data

How the results depend on the processing

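Counts of channel genes called higher were 8 to 13 and of those called lower 6 to 11 when single libraries were left out; partner genes were 6 to 7 higher and 7 to 9 lower. All genes called higher numbered 1205 to 2176 and lower 1335 to 2476 in the same fits, lowest without EED-/- replicate 1 in both directions. DESeq2 called 14 channel genes higher and 11 lower, limma-voom 10 and 10, RLE scaling 11 and 9, and the fit without a low-count filter 13 and 10. Higher genes made up 45.5% of all calls with TMM, 61.3% under upper-quartile and 58.6% under library-size scaling. The sign changed for 6 channel genes, none of them called. Cacna2d4 (-0.042 as reported) was 0.0586 with library size alone, 0.0769 with upper-quartile scaling, and -0.14 to 0.0803 over fits that left out a library, above 0 without EED-/- replicate 1 or WT replicate 2 or 3. Leaving out single libraries gave ranges of -0.148 to 0.383 for Cacna2d1, -0.44 to 0.0589 for Cacnb4, -0.0815 to 0.186 for Cacng5, -0.269 to 0.0136 for Cacng8 and -0.257 to 0.0605 for Scn2b; the reversed values came without WT replicate 1 (Cacna2d1, Cacng8, Scn2b) or WT replicate 2 (Cacnb4, Cacng5). The causes were not tested. The labels do not say whether replicate numbers pair the libraries. Same-numbered libraries had correlations of deviations of 0.0276, -0.233 and -0.00125, and differently numbered ones -0.188 to 0.198. These few values show no pairing and cannot exclude it. With a replicate block 9 channel genes were higher and 8 lower, 6 partner genes higher and 9 lower, and 1505 of all genes higher and 1706 lower. At this depth genes under 1 CPM in both genotypes, Scn4a, Scn10a, Cacna1f, Cacng1 and Cacng6, rest on at most 55 counts per genotype.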
